A study of Mus musculus with 4 samples.

Results

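The genes of the synaptic vesicle cycle and release machinery were read in ribosome-bound RNA of the mouse pons. The 47 genes were chosen by name and function, with earlier results of these data known. All 47 had a row in the gene tables, among 31735 shared gene rows. They encode the core SNARE proteins, the synaptotagmins, the membrane proteins of the vesicle, the proteins of the active zone, and the proteins that recover the vesicle membrane after release.

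Translating ribosome affinity purification of the rostral pons of adult, untreated control mice gave 4 libraries. The mice belong to the Cbln2-TRAP line NIDA172, in which ribosomal protein L10a tagged with EGFP is made under the name-giving gene Cbln2, so that antibodies against EGFP capture RNA on the ribosomes of the cells that make the tag. There was 1 group of immunopurified RNA with the replicate numbers 1 to 4, and no unpurified RNA was used here, so values are levels and ratios within the captured RNA. Nothing in the labels says whether replicates came from separate animals or from pools, so p-values reflect how far the libraries scatter, part of which may be technical.

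A vesicle fuses with the presynaptic membrane when VAMP proteins on the vesicle zip together with syntaxin and SNAP-25 on the membrane. Synaptotagmins sense the calcium that triggers fusion, complexins clamp and assist the SNARE bundle, and Munc13 and RIM proteins prime vesicles at the active zone. NSF with its adaptor SNAP proteins then takes the SNAREs apart, while dynamin, amphiphysin, synaptojanin and endophilin retrieve the membrane. Fast synapses of the mammalian brainstem are known for synaptotagmin 2, VAMP1 and complexin 1, whereas synaptotagmin 1, VAMP2 and complexin 2 prevail in much of the forebrain.

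The libraries held 12731825 to 21140265 gene counts, and CPM below stands for counts per 1000000 gene counts of the same library. Cbln2 itself was at 126 and 65.7 CPM in replicates 3 and 4, against 239 and 109.9 CPM in replicates 1 and 2. A row for the ribosomal RNA precursor, Rn45s, took 24.2% and 9.29% of the gene counts in replicates 3 and 4. In replicates 1 and 2 it took 1.68% and 1.61%. All 12 general neuronal genes reached 1 CPM in all 4 libraries, with a summed level of 4137 to 7211 CPM. Astrocyte and oligodendrocyte genes were present as well, with summed levels of 643 to 2626 CPM over 11 genes and 455 to 2525 CPM over 10 genes, both lowest in replicate 3. Cerebellar granule cell genes summed to 157 to 1307 CPM over 8 genes. In such bulk RNA, fewer cells of a type and less RNA per cell cannot be told apart.

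All 47 genes reached 1 CPM in all 4 libraries, 44 reached 10 CPM and 31 reached 100 CPM, while 33.5% of all shared rows reached 1 CPM. Together they took up 3.75%, 3.66%, 2.37% and 2.63% of all gene counts in replicates 1 to 4, or 3.81%, 3.72%, 3.12% and 2.90% with Rn45s taken out of the total. Without Snap25 the share was 1.89%, 2.07%, 1.55% and 1.94%, and replicate 4 then lay between replicates 1 and 2. With Rn45s also taken out of the total it was 1.92%, 2.10%, 2.05% and 2.14%, highest in replicate 4. Genes are compared with each other only as CPM per kb of exon, which adjusts for length but depends on how exons are counted. On that scale the median of the 47 genes was 39.4 CPM per kb, beside 6.68 CPM per kb for 10147 genes of known length at 1 CPM or more throughout. Of the 47 genes, 5 stood among the 100 most abundant of those genes and 25 among the first 1000.

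**Figure D1:**
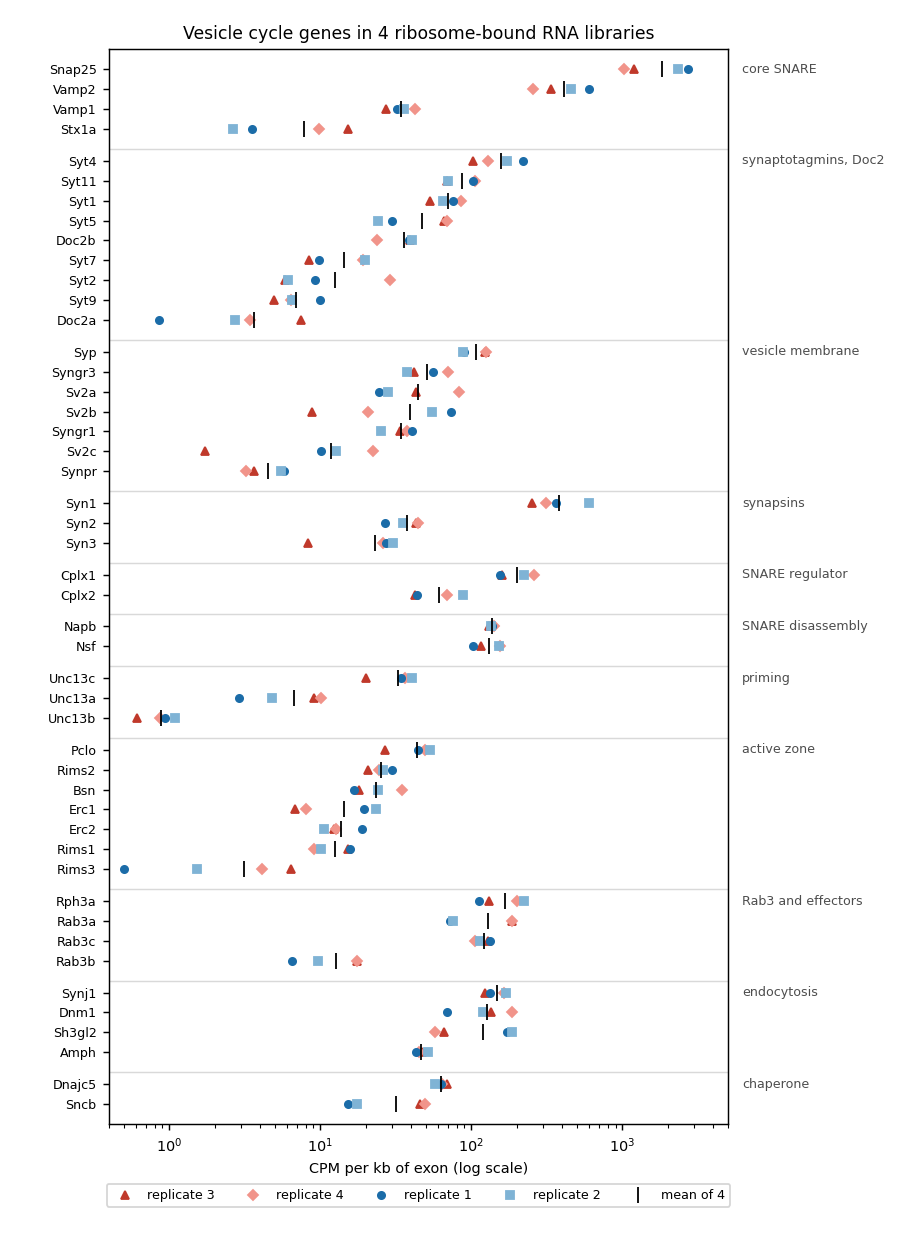
Level of each of the 47 genes as CPM per kb of exon (log axis) in each of the 4 libraries, grouped by role and ordered by mean within a role, with the mean as a black bar. Snap25 stands far to the right of all others at 1021 to 2735 CPM per kb, and Unc13b is lowest at 0.615 to 1.09 CPM per kb.

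Among the core SNARE genes, Snap25 (chromosome 2, 136713453 to 136782428, GRCm38) was the most abundant of all 47. Its level in replicates 1 to 4 was 18577, 15908, 8131 and 6936 CPM, and per kb it ranked 4th among the 10147 genes. Vamp2 (chromosome 11, 69088490 to 69092384), the vesicle SNARE of most central synapses, followed with 2273, 1740.1, 1275 and 976 CPM. Its paralog Vamp1 was at 328, 364, 277 and 432 CPM. Per kb, Vamp2 exceeded Vamp1 11.3-fold (log2 ratio 3.50 ± 0.67, SD, n = 4), and the ratio was lowest in replicate 4, at log2 2.58. Snap25 and Vamp2, neighbours at the top of the order, differed beyond their spread, with a log2 ratio of 2.10 ± 0.23.

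The syntaxin in the list, Stx1a, was low and uneven, with 9.46, 7.07, 40.5 and 26.1 CPM in replicates 1 to 4. The highest library exceeded the lowest 5.73-fold. Per kb it was at 2.65 to 15.2 CPM per kb, rank 41 among the 47 genes by its mean of 7.79 ± 5.87 CPM per kb (SD, n = 4).

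Ratios between paralogs were taken within each library for pairs of genes of a family, 47 ratios in 12 families. A ratio is said to exceed its spread where it had the same sign in 4 of 4 libraries and a mean over 2 SD. This held for 32 of the 47 ratios, while 38 had the same sign in 4 of 4. A two-sided exact sign-flip test over 4 libraries has 16 patterns and a smallest p of 0.125, or 0.155 after Benjamini-Hochberg adjustment over the 47 ratios, and so cannot reach 0.05. All 32 ratios had these smallest values.

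**Figure D2:**
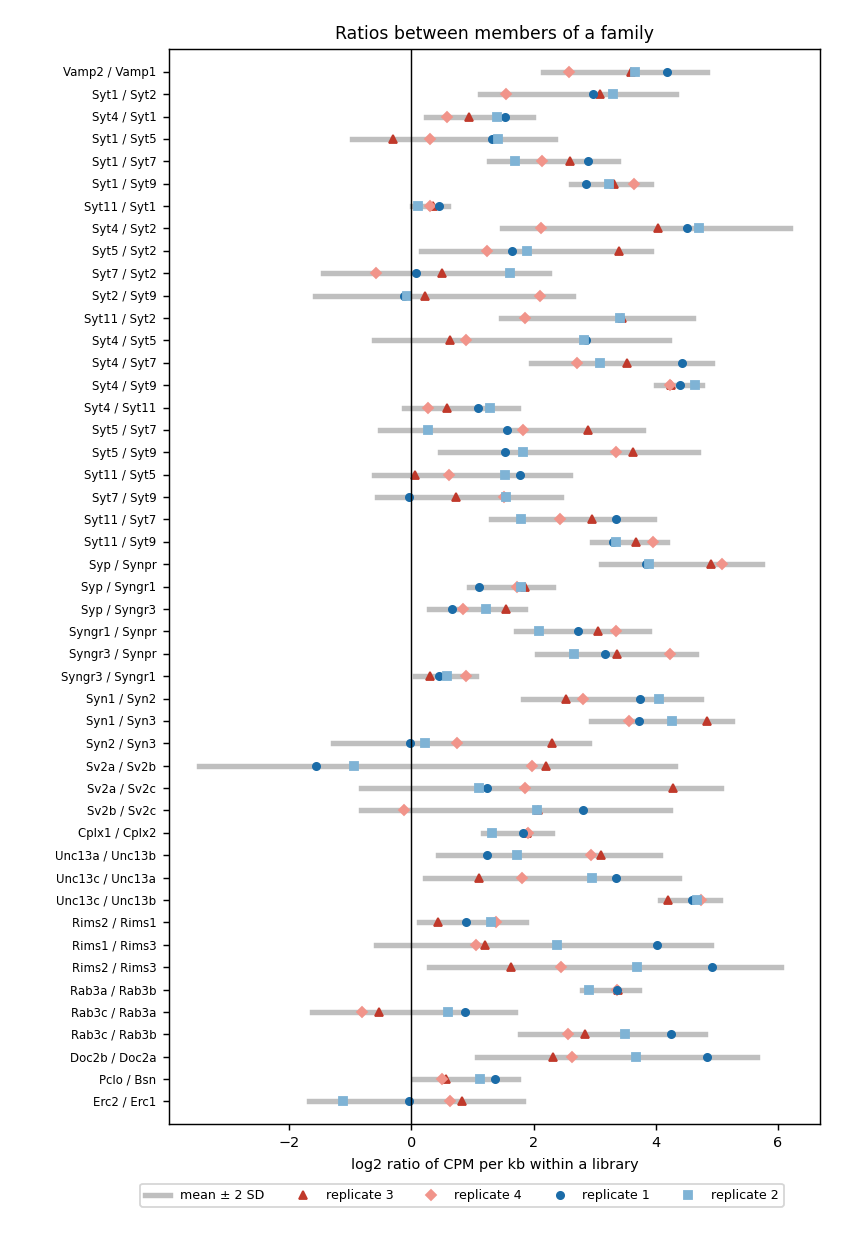
Log2 ratio of CPM per kb between 2 genes of a family (x axis) for each of the 47 ratios, with 1 point per library and a grey bar for the mean ± 2 SD. Points right of 0 mean that the gene named first was higher; the points of Sv2a over Sv2b fall on both sides of 0, from -1.57 to 2.21.

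Synaptotagmins divide into sensors that bind calcium in their first C2 domain, such as synaptotagmins 1, 2, 5, 7 and 9, and synaptotagmins 4 and 11, which do not bind it there. Syt4 and Syt11 were among the abundant ones. Syt4 was at 858, 675, 401 and 501 CPM in replicates 1 to 4 and Syt11 at 538, 366, 358 and 554 CPM. Syt1, the main sensor of forebrain synapses, was at 629, 544, 447 and 715 CPM. Per kb, Syt4 exceeded Syt1 2.17-fold (log2 1.12 ± 0.44), in 4 of 4 libraries. With the longest transcript as the length this ratio was 1.26-fold and no longer exceeded its spread, so the order of Syt4 and Syt1 rests on how exons are counted. Syt11 exceeded Syt1 1.24-fold (log2 0.31 ± 0.14) by union exon length, but the log2 ratio was -0.43 with the longest transcript and -0.37 without any length. It did not exceed its spread without replicate 1, 3 or 4, at log2 0.26 to 0.31.

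Syt2 was below Syt1 per kb in 4 of 4 libraries, least so in replicate 4. Its levels were 70.2, 46.99, 44.5 and 222 CPM in replicates 1 to 4. Syt1 exceeded Syt2 6.63-fold per kb (log2 2.73 ± 0.80), with log2 values of 2.97, 3.31 and 3.09 in replicates 1 to 3 and 1.55 in replicate 4. The slow, high-affinity sensor Syt7 was at 72.8, 149, 63.2 and 144 CPM. Syt5 was at 71.1, 57.4, 158 and 165 CPM, and Syt9, the lowest of the 7 in mean level per kb, at 39.7, 25.7, 19.6 and 25.3 CPM. Syt1 exceeded Syt9 9.63-fold (log2 3.27 ± 0.33) and Syt7 5.02-fold (log2 2.33 ± 0.53), each in 4 of 4 libraries. With the longest transcript, Syt1 exceeded Syt2 10.4-fold, Syt9 15.97-fold and Syt7 7.69-fold. Syt2 could not be ordered against Syt7 or Syt9, with log2 ratios of 0.40 ± 0.92 for Syt7 over Syt2 and 0.54 ± 1.06 for Syt2 over Syt9. Outside the 47, 10 further synaptotagmin genes were read. Of these, Syt13 had the highest mean level per kb (35.5 ± 6.66 CPM per kb), and Syt8 had 0 counts in all 4 libraries, which allows up to 0.142 to 0.236 CPM.

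The Doc2 genes encode calcium-binding proteins linked to spontaneous and asynchronous release. Doc2b was at 169, 178, 171 and 104 CPM in replicates 1 to 4, and Doc2a at 2.41, 7.59, 20.97 and 9.60 CPM. Doc2b exceeded Doc2a 10.4-fold per kb (log2 3.37 ± 1.15). Exons of Ino80e on the other strand cover 39.4% of the Doc2a exons, so reads there could not be assigned with certainty.

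Of the complexins, the brainstem form led. Cplx1 was at 339, 485, 348 and 573 CPM in replicates 1 to 4 and Cplx2 at 214, 436, 208 and 340.2 CPM. Cplx1 exceeded Cplx2 3.34-fold per kb (log2 1.74 ± 0.28), with log2 values of 1.32 to 1.92. For each of these genes the union exon and longest transcript lengths are identical, so the other length gives no separate check. Without division by length the log2 ratio was 0.58. Cplx3 and Cplx4, the retinal complexins, had 0 counts in all 4 libraries. So of the 3 forms known from fast brainstem synapses, complexin 1 exceeded its forebrain counterpart in 4 of 4 libraries, while Syt2 and Vamp1 were below theirs in 4 of 4.

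Among the membrane proteins of the vesicle, Syp (synaptophysin) led its family with 462, 461, 643 and 654 CPM. Syngr1 and Syngr3, which encode the related synaptogyrins, were at 164 ± 32.4 and 106 ± 29.9 CPM, and Synpr (synaptoporin) at 42.6 ± 12.1 CPM. Per kb, Syp exceeded Synpr 21.6-fold (log2 4.43 ± 0.66), Syngr1 3.09-fold (1.63 ± 0.35) and Syngr3 2.10-fold (1.07 ± 0.39). All 6 ratios of this family exceeded their spread, but Syngr3 over Syngr1 (log2 0.56 ± 0.25) turned to -0.65 without division by length. It also did not exceed its spread with the longest transcript (log2 0.43) or without replicate 2 (log2 0.55), nor did Syngr3 over Synpr without division by length (log2 1.31). With the longest transcript, Syp exceeded Syngr1 4.92-fold and Syngr3 3.65-fold.

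The SV2 family showed no stable order. Sv2a, present in nearly all neurons and the target of levetiracetam, was at 113, 131, 198 and 383 CPM in replicates 1 to 4. Sv2b was at 615, 458, 74.1 and 173 CPM, and Sv2c at 97.5, 124, 16.7 and 218 CPM. Sv2a was thus above Sv2b in replicates 3 and 4 and below it in replicates 1 and 2, with a mean log2 ratio of Sv2a over Sv2b of 0.42 ± 1.95. None of the 3 ratios of this family exceeded its spread.

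Synapsins coat vesicles and tether them in the reserve pool. Syn1 (chromosome X, 20860511 to 20921004) was at 1203, 1971, 828 and 1034 CPM in replicates 1 to 4. Per kb it was the third of the 47 genes, at 382 ± 151 CPM per kb. Syn2 was at 189, 249.5, 303 and 310.5 CPM, and Syn3 at 334, 375, 102 and 321 CPM. Syn1 exceeded Syn2 9.74-fold (log2 3.28 ± 0.73) and Syn3 17.1-fold (4.10 ± 0.58) per kb, in 4 of 4 libraries. With the longest transcript as the length these were 5.43-fold and 6.84-fold. Syn2 and Syn3 did not differ beyond their spread (log2 0.81 ± 1.05), and Syn3 contains the gene Timp3 on the other strand, whose exons cover 14.1% of the Syn3 exons. Exons of other genes on the opposite strand also cover 16.8% of the Syp exons, 14.5% of those of Syt4 and 11.8% of those of Erc1.

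The promoter of Syn1 is a textbook case of a neuronal promoter, with an RE1 element for the repressor REST and a cyclic AMP response element (CRE), and it is printed for these motifs. The window runs from 250 bases before to 50 bases after the RefSeq start (GRCm38.p6), in lower case with matches to 4 motifs in capitals on either strand: TTCAGCACC, the left part of RE1; TGACGTCA, the CRE; TATAAA; and GGGCGG, the GC box.
Syn1, chrX:20920869-20921168, minus strand: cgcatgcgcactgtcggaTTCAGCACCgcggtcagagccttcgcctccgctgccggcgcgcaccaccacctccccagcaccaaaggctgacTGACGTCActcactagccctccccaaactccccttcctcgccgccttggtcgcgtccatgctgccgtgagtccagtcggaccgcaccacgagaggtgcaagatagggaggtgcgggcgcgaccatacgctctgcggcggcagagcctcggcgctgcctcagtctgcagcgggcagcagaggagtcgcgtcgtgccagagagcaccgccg
The RE1 part starts at -232 and the CRE at -159 from the start. Windows were found for 36 of the 47 genes, 47 windows in all. GGGCGG stood in 31 of the 47 windows (66.0%), against 35.7% of all 32851 windows, and median GC content was 62.0%, against 52.7%. The RE1 part stood in 2 of the 47 windows, those of Syn1 and Unc13a, against 0.371% of all windows. The CRE stood in the windows of Syn1 and Sh3gl2, against 1.79% of all windows. These are matches of letters and say nothing of binding.

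Of the genes that take the SNARE bundle apart, Napb (chromosome 2, 148693985 to 148732467), which encodes beta-SNAP, was at 971, 950.4, 926 and 991 CPM in replicates 1 to 4, a 1.07-fold range. With Rn45s out of the total it was at 987, 966, 1222 and 1092 CPM, a 1.27-fold range, and the narrowest range was then that of Rims2 at 1.15-fold. Nsf, the ATPase, was at 851, 1269, 963 and 1295 CPM. Of the adaptor paralogs outside the 47 genes, Napg was at 162 ± 58.2 CPM and Napa at 90.0 ± 44.3 CPM. Over the 47 genes, the median ratio of the highest to the lowest library was 2.03, and it was under 1.5-fold for 7 genes and over 4 for 6. The median SD of log2 CPM was 0.47, beside 0.80 for the 13905 genes tested below, most of which were less abundant.

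Munc13 proteins make vesicles ready to fuse. Unc13c, a form known best from cerebellar granule cells, was at 302, 355, 176 and 320.0 CPM in replicates 1 to 4. Unc13a, the main form of forebrain glutamate synapses, was at 36.5, 60.4, 114 and 127 CPM, and Unc13b at 21.2, 24.8, 14.0 and 19.8 CPM. Unc13c exceeded Unc13b 23.6-fold (log2 4.56 ± 0.25) and Unc13a 4.94-fold (2.30 ± 1.04) per kb. The ratio to Unc13a did not exceed its spread with the longest transcript, without division by length or without replicate 2. Its log2 value was 1.10 and 1.80 in replicates 3 and 4, against 3.36 and 2.95 in replicates 1 and 2. The change was larger in Unc13a than in Unc13c. In the comparison of replicates described below, their log2 changes were 1.33 and -0.42. Neither was called (edgeR adjusted p = 0.148 and 0.602). The 8 granule cell genes summed to 157 and 254 CPM in replicates 3 and 4. In replicates 1 and 2 they summed to 549 and 1307 CPM. The 6 Purkinje cell genes summed to 764 and 740.1 CPM in replicates 3 and 4, against 1555 and 2567 CPM. Itpr1 alone made up 357 and 430 CPM, against 949 and 1706 CPM, of the Purkinje cell sum. Of these genes, 7 of the 8 and 6 of the 6 reached 1 CPM in all 4 libraries, and their part in the Unc13c level was not tested.

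At the active zone, Pclo and Bsn encode the giant scaffolds piccolo and bassoon. Pclo was at 974 ± 258 CPM and Bsn at 372 ± 129 CPM (SD, n = 4), and per kb Pclo exceeded Bsn 1.86-fold (log2 0.89 ± 0.43). Rims2 exceeded Rims1 2.01-fold (log2 1.01 ± 0.44), at 261 ± 38.0 and 92.3 ± 25.3 CPM. That ratio was 3.78-fold with the longest transcript, and it did not exceed its spread without replicate 1 or without replicate 2, at log2 1.04 and 0.91. Pclo over Bsn did not exceed its spread without replicate 2, at log2 0.82. Rims3, a short RIM without the priming domains of the long forms, was at 3.97, 12.2, 50.7 and 32.5 CPM in replicates 1 to 4. Per kb it was the lowest of the 3 RIM genes in 4 of 4 libraries, and Rims2 exceeded it 9.01-fold (log2 3.17 ± 1.44), or 16.5-fold with the longest transcript. Without replicate 2 this ratio did not exceed its spread. Of the ELKS proteins that bind RIM, Erc2 was at 183, 103, 120.4 and 124 CPM and Erc1 at 314, 383, 110.4 and 130.5 CPM. They did not differ beyond their spread (log2 0.08 ± 0.88 for Erc2 over Erc1).

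Rab3 proteins are small GTPases on the vesicle that bind RIM and rabphilin. Rab3c was at 1603, 1382, 1549 and 1273 CPM in replicates 1 to 4, Rab3a at 160, 169, 415 and 411 CPM, and Rab3b at 22.8, 34.1, 61.7 and 61.3 CPM. The exons of Rab3c are longer, and per kb the log2 ratio of Rab3c over Rab3a was 0.04 ± 0.83. It was below 0 in replicates 3 and 4 and above 0 in replicates 1 and 2. Rab3a exceeded Rab3b 9.57-fold (log2 3.26 ± 0.23) and Rab3c exceeded Rab3b 9.80-fold (3.29 ± 0.75). The effector Rph3a (rabphilin) was at 524, 1027, 604 and 925 CPM and ranked 99th among the 10147 genes per kb.

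The endocytic genes of the list lay between 195 and 1368 CPM in each library. Synj1 (synaptojanin 1), a phosphoinositide phosphatase needed for shedding of the clathrin coat, was at 1193 ± 188 CPM, Dnm1 (dynamin 1) at 669 ± 255 CPM and Amph (amphiphysin) at 211 ± 16.1 CPM (SD, n = 4). Sh3gl2 (endophilin A1) was at 1121, 1208, 434 and 374 CPM in replicates 1 to 4. Of the chaperones, Dnajc5 (cysteine string protein alpha) was at 439 ± 33.3 CPM and Sncb (beta-synuclein) at 32.8, 37.4, 97.9 and 106 CPM. Over the whole order of the 47 genes per kb, neighbours differed beyond their spread at 2 of 46 steps, Snap25 over Vamp2 and Syt11 over Syt1.

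The library descriptions carry the numbers 2469 and 2470 for replicates 3 and 4 and 1666 and 1667 for replicates 1 and 2. No label calls these batches, and the same group was sampled in both. The gene tables also differ between them, with 32657 rows in replicates 3 and 4 and 32531 in replicates 1 and 2. The part of this in the changes below was not tested. Counts of all genes were compared between the later and the earlier numbers to see which of the 47 genes differ between replicates. Sv2b, Erc1 and Sh3gl2 were called lower in replicates 3 and 4 than in replicates 1 and 2, and no gene of the 47 was called higher (edgeR quasi-likelihood test, Benjamini-Hochberg adjusted over 13905 genes). On simulated data the test recovered 1 of 50 genes changed 2-fold and 18 of 50 changed 4-fold, with 9 false calls. A gene that was not called may therefore still differ. These 3 are 6.38% of the 47 genes, beside 1.27% of all genes tested, 0.554% called lower and 0.712% higher. Among the 8864 genes of 10 CPM or more on average, 5 of the 47 were called, beside 4.94%. The median log2 change of the 47 genes was -0.02, beside -0.03 over all genes tested, with 23 above 0 and 24 below.

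Markers of cerebellar cells, and some of other cells, moved in the same comparison. Of the 8 granule cell genes, Neurod1 and Cbln3 fell, with log2 changes of -3.75 and -2.58 (edgeR adjusted p = 0.0127 and 0.0238). Of the 6 Purkinje cell genes, Car8 and Itpr1 fell, with log2 changes of -2.85 and -1.75 (edgeR adjusted p = 0.0127 and 0.0332), while Calb1 and Pcp2 were at log2 0.57 and 1.85 and were not called. The median log2 change was -2.15 over the granule cell genes tested and -1.15 over the Purkinje cell genes. Of the 12 general neuronal genes, Nefm fell and Tubb3 rose, with log2 changes of -2.56 and 1.97 (edgeR adjusted p = 0.0238 and 0.0307). Medians were -1.29 over the endothelial genes tested, -0.80 over oligodendrocyte genes and -0.29 over astrocyte genes. They were 0.77 over oligodendrocyte precursor genes and 0.89 over microglia genes, and 0 genes were called in each of these lists. The part of any of these cell types in the values of Sv2b, Erc1 and Sh3gl2 was not tested.

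Sv2b (chromosome 7, 75114894 to 75309262) was at 74.1 and 173 CPM in replicates 3 and 4, against 615 and 458 CPM in replicates 1 and 2. The log2 change was -2.14 (SE 0.39, edgeR adjusted p = 0.0278), and -2.73 without replicate 4. Erc1 (chromosome 6, 119570796 to 119848167) was at 110.4 and 130.5 CPM in replicates 3 and 4, against 314 and 383 CPM in replicates 1 and 2. Its log2 change was -1.53 (SE 0.33, edgeR adjusted p = 0.0477). Sh3gl2 (chromosome 4, 85205126 to 85639195) was at 434 and 374 CPM, against 1121 and 1208 CPM, a log2 change of -1.50 (SE 0.31, edgeR adjusted p = 0.0363). In all 3 genes the libraries of the 2 pairs did not overlap. That alone is common here, since 25 of the 47 genes did not overlap between the pairs, beside 47.5% of all genes tested. Rn45s, which took a larger share of replicates 3 and 4, is part of the total behind these CPM.

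Snap25 was at 8131 and 6936 CPM in replicates 3 and 4, against 18577 and 15908 CPM in replicates 1 and 2, and missed the threshold (log2 -1.17, SE 0.27, edgeR adjusted p = 0.0553; 0.0103 by DESeq2, and 7.5e-08 to 0.247 over 9 alternatives). Rab3a missed it in the other direction, at 415 and 411 CPM against 160 and 169 CPM (log2 1.35, SE 0.32, edgeR adjusted p = 0.0632; 0.00441 by DESeq2, and 0.00441 to 0.345 over 10 alternatives). Sncb, Syt5, Unc13a and Sv2a had log2 values of 1.55, 1.35, 1.33 and 1.24, with edgeR adjusted p of 0.0977, 0.0962, 0.148 and 0.11. At an unadjusted p under 0.05 there were 8 genes above 0 and 7 below, which is 15 of 47 beside 16.8% of all genes tested. DESeq2 called 7 higher and 4 lower, beside 10.1% of all genes.

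**Figure D3:**
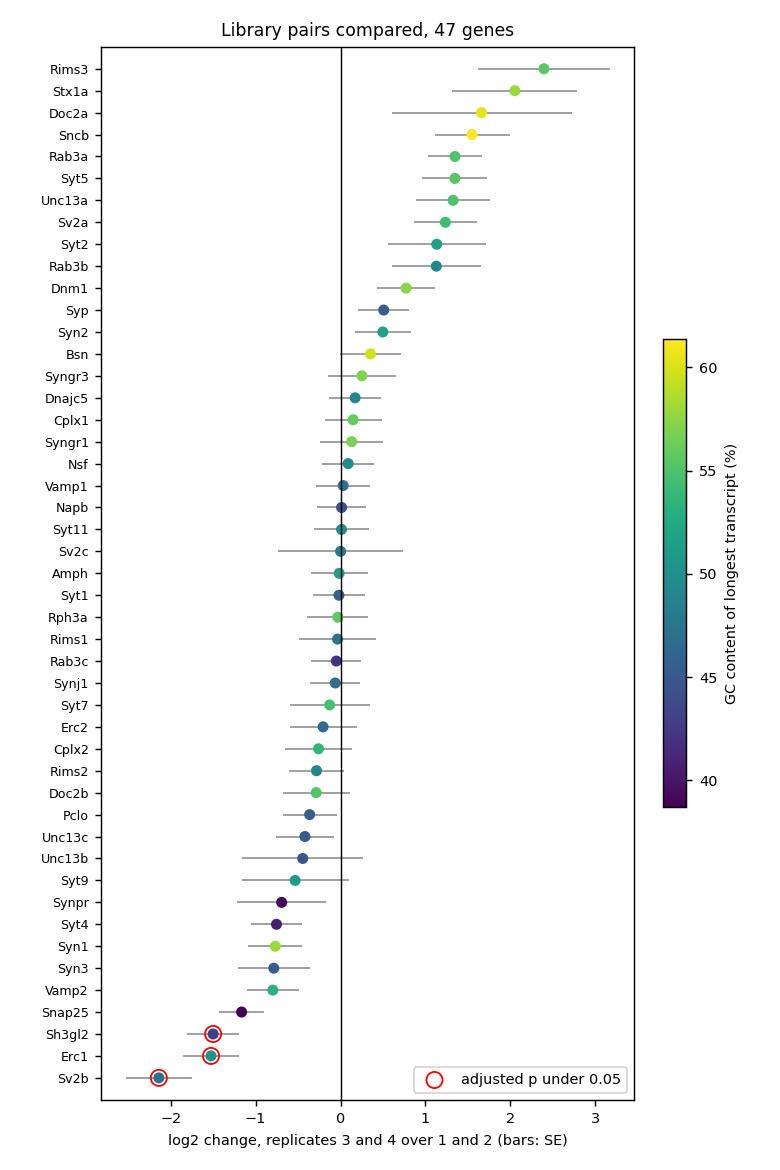
Log2 change of each of the 47 genes in replicates 3 and 4 over replicates 1 and 2 (x axis, bars are the SE), coloured by the GC content of the longest transcript, with a red ring where the adjusted p is under 0.05. Sv2b, Erc1 and Sh3gl2 are ringed at the low end, and the genes at the high end carry the colours of high GC content.

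The promoter windows of the genes that fell together are given in the same way as that of Syn1, so that their sequences can be compared; Sv2b has 4 windows, and the first listed is shown.
Sv2b, chr7:75309213-75309512, minus strand: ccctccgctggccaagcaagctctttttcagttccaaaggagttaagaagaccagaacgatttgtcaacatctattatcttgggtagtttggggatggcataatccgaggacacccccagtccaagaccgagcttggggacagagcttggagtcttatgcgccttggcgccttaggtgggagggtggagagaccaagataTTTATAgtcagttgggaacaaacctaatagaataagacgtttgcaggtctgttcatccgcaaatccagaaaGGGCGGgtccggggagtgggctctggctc
Erc1, chr6:119848101-119848400, minus strand: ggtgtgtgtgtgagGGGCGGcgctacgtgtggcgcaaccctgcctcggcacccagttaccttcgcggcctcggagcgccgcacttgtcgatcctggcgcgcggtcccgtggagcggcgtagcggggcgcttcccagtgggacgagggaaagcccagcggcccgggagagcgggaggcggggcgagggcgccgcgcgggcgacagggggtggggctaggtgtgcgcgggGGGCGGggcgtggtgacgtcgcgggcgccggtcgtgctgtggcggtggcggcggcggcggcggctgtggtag
Sh3gl2, chr4:85205206-85205505, plus strand: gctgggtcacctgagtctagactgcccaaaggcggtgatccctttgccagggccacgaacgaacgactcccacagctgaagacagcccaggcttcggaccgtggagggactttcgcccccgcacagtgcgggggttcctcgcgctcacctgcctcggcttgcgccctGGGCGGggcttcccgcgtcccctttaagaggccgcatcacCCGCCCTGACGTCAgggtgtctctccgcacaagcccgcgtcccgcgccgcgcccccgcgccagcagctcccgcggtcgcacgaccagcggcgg
Sv2b holds a match to TATAAA on the reverse strand and 1 to the GC box, and its window has a GC content of 51.3%. Erc1 and Sh3gl2 hold 2 GC boxes each, with GC contents of 77.0% and 70.7%, and in Sh3gl2 a GC box on the reverse strand abuts the CRE. The 3 windows share the GC box, which 66.0% of the windows of the 47 genes hold.

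The GC content of the transcripts themselves went with the change. Across the 47 genes, the log2 change in replicates 3 and 4 over replicates 1 and 2 correlated with the GC content of the longest transcript at a Pearson's r of 0.58 and a Spearman's rho of 0.58. Across 12888 tested genes with a GC value the values were 0.32 and 0.37, a description across genes that share the same libraries. Of the 24 genes over 50% GC, 15 were above 0, with a median of 0.30, and of the 23 others 8 were above 0, with a median of -0.06. Among all tested genes, 66.0% of those over 50% GC and 34.3% of those at or below it were above 0. Their medians were 0.49 and -0.34. Rims3, Stx1a, Doc2a and Sncb, with the highest log2 values of 2.40, 2.05, 1.66 and 1.55, had GC contents of 55.4%, 57.9%, 60.4% and 61.4%. Snap25 had the lowest GC content of the 47 genes, at 38.7%. The genes of the turned ratios differed in GC content too, with 54.2% for Sv2a and 46.8% for Sv2b, and 55.0% for Rab3a and 41.9% for Rab3c. The part of GC content in these ratios was not tested.

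**Figure D4:**
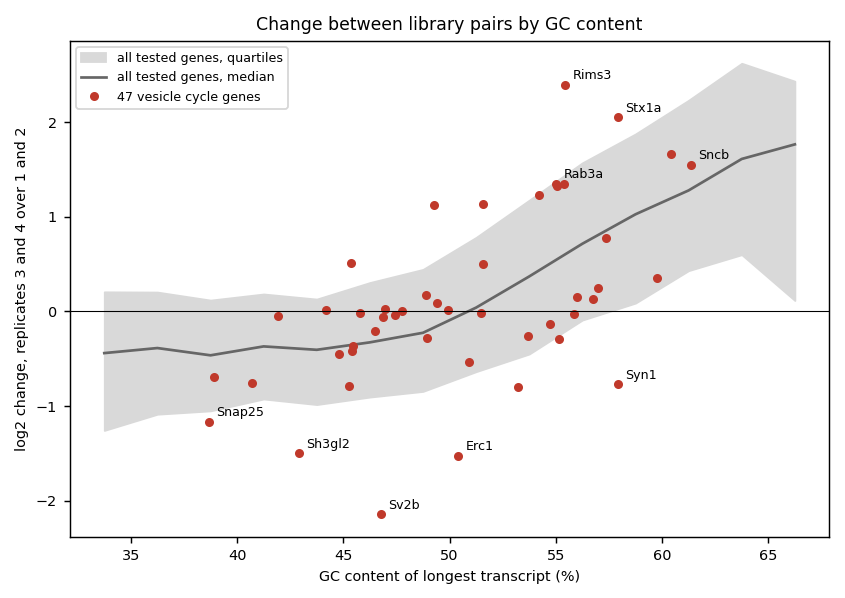
Log2 change in replicates 3 and 4 over replicates 1 and 2 (y axis) against the GC content of the longest transcript (x axis) for the 47 genes (red), over the median and quartiles of all tested genes in bins of 2.5% with at least 20 genes (grey). The grey median climbs from -0.44 in the lowest bin to 1.77 in the highest. Sv2b, Erc1, Sh3gl2, Snap25, Vamp2 and Syn1 are among the genes below the quartiles, and Rims3 and Stx1a among those above them.

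With an offset for GC content, chosen after seeing the data, the calls of Sv2b, Erc1 and Sh3gl2 ended, with log2 changes of -1.88, -1.52 and -1.12 and edgeR adjusted p of 0.0596, 0.0828 and 0.144. Over 10 alternatives in all, their adjusted p ranged up to these values. Erc1 was also not called with DESeq2 size factors (0.0501) or without replicate 2 (0.0758). Under the GC offset Syn1 was called instead, with a log2 change of -1.79 (edgeR adjusted p = 0.0284) against -0.77 without it. The direction of Sv2b, Erc1 and Sh3gl2 was the same in all 10 alternatives.

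A further 83 genes of the vesicle cycle were listed as its wider machinery, 82 of which had a row; Vamp7 was not analysed here. Of these, 71 reached 1 CPM in all 4 libraries, and those high per kb included the uncoating chaperone Hspa8 (306 ± 19.3 CPM per kb), Snap47 (113 ± 12.96) and Lin7a (104 ± 50.6). In replicates 3 and 4 relative to replicates 1 and 2, 4 of 78 tested genes rose (edgeR, adjusted over all genes), beside 0.712% of all genes tested, and the median log2 change was 0.13, beside -0.03. The 4 genes that rose were all endocytic, and endocytic genes were also the largest class of this wider list. Endocytic genes did not all go in 1 direction. In the wider list, Eps15 and Itsn2 had log2 changes of -1.18 and -1.14 and were not called (edgeR adjusted p = 0.0874 and 0.145). Sh3gl2, described above, was called lower (log2 -1.50, edgeR adjusted p = 0.0363). A shift of endocytic genes as a group was not tested. Ap2a1 and Ap2s1, subunits of the clathrin adaptor AP-2, had log2 changes of 3.15 and 6.69 (SE 0.64 and 1.33, edgeR adjusted p = 0.0353 for both). Bin1 (amphiphysin 2) and Pacsin1 (syndapin 1) had log2 changes of 2.40 and 1.58 (SE 0.48 and 0.34, edgeR adjusted p = 0.0353 and 0.0447). Ap2s1 was at 21.6 and 22.6 CPM in replicates 3 and 4, against 0.0473 and 0.386 CPM in replicates 1 and 2, that is 1 and 6 counts, and replicate 1 was under the floor of 3 counts. Its log2 change was 5.80 without replicate 1 and 8.70 without replicate 2. Their transcripts had GC contents of 55.3% to 59.3%, and none of the 4 was called with the GC offset (edgeR adjusted p of 0.0759 for Ap2s1 to 0.463 for Pacsin1). The log2 changes were then 1.92 for Ap2a1, 5.94 for Ap2s1, 1.75 for Bin1 and 0.62 for Pacsin1. Pacsin1 was not called without replicate 1 (0.092), nor Bin1 and Ap2a1 without replicate 4 (0.0761 and 0.0844).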

How the data were processed

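Ribosome-bound RNA was measured by RNA-seq in 4 immunopurified libraries of 1 group. The authors deposited unnormalized gene-level counts. Tools named per the submitters' processing notes are STAR 2.0.0e and HTSeq, with mm10 as the build. Which annotation and strand setting they used is not given in the sources used here, and reads of genes that overlap on opposite strands could not be told apart. HTSeq summary rows and the row unknown (0 counts) were left out; reads outside features were 24.0% to 30.1%, and reads with several alignments 28.6% to 37.2%, of a library. The title of replicate 4 was followed where its description repeats the label of replicate 3. Tables held 32657 gene rows in replicates 3 and 4 and 32531 in replicates 1 and 2, of which 31735 shared ones were used; totals are over all gene rows.

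CPM were divided by union exon length (GENCODE M21, GRCm38), with a pseudocount of 0.5 CPM per kb for log2 ratios. The library pairs were compared with edgeR 4.0.16 in R 4.3.3 (quasi-likelihood F test after TMM scaling and filterByExpr, Benjamini-Hochberg adjusted p under 0.05), tested on simulated data; the SE is the log2 change divided by the root of F. Alternatives were DESeq2 1.42.0, its size factors, 2 other filters, leaving out the 20 top genes, a GC offset (lowess, span 0.3), other lengths, totals, pseudocounts and each replicate left out. GC content is that of the longest transcript. Promoter windows are RefSeq's (GRCm38.p6). Members and lists were chosen with earlier results of these data known. Named genes were all 47, and of the 83 others the paralogs, the called ones and the 5 highest per kb, some of which, with 1 ratio, are not reported here. Counting error sets a floor of 3 counts, 0.142 to 0.236 CPM.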

Additional observations from a re-analysis of the deposited data

Results flagged for a closer look

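Of 48 sets of 4 library values examined, 2 had a library far from the others, and chance gives about 1 in 20. Syt2 was at 222 CPM in replicate 4, against 44.5 to 70.2 CPM in the other 3 libraries. Doc2b was at 104 CPM in replicate 4, against 169 to 178 CPM in the others.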

How the results depend on the processing

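No paired analysis was possible because all libraries belong to 1 group and carry different replicate numbers. All 47 genes reached 1 CPM in all libraries; 45 reached 5 CPM. The median level was 59.2 CPM per kb with the longest transcript and 283 CPM without division by length, against 39.4. Of 32 ratios beyond their spread, 3 lost this with the longest transcript and 6 without length, 6 without replicate 2, and 1 to 3 without each other replicate; within replicates 3 and 4 alone 35 of 47 met the rule, within replicates 1 and 2 alone 41, and 42 had the same sign in both. Syt11 over Syt1 turned to -0.43 (longest transcript) and -0.37 (no length), and Syngr3 over Syngr1 to -0.65 (no length). Between the pairs, genes called higher numbered 7 by DESeq2, 5 without a filter and 2 at 10 CPM or more, against 0, and 0 to 2 when 1 replicate was left out; genes called lower numbered 1 with the GC offset, against 3, and 2 to 6 when 1 replicate was left out. Over all genes, calls numbered 1403 by DESeq2, 875 without a filter, 438 at 10 CPM or more, 49 with the GC offset and 389 to 699 with 1 replicate left out, against 176. Sv2c, near 0 in the comparison, was called lower without replicate 4 (edgeR adjusted p = 0.0152; 0.0152 to 0.998 over 10 alternatives), with log2 values of -2.61 to 0.87 when 1 replicate was left out. The cause of these differences was not tested.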
